A study of Mus musculus with 15 samples.

Results

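Dense-core granules are the stores from which enteroendocrine cells of the gut release peptide hormones. The genes described here are 10 of the 20144 named on the array. They encode proteins of these granules, enzymes that process prohormones there and, in Scgn, a calcium-binding protein of neuroendocrine cells. They are the granins Chga, Chgb, Scg2 and Scg3, the convertase Pcsk1 with its inhibitor Pcsk1n, the chaperone Scg5, the carboxypeptidase Cpe, the calcium sensor Scgn and the endocrine protein Resp18. The list was given by symbol, and every array probe whose transcript accession belongs to one of these symbols was taken. That gave 12 probes, 3 of them for Cpe and 1 for each other gene, of 39429 probes on the array. All 12 were bright enough to be tested, as were 28480 probes in all.

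The RNA came from small intestinal crypts, the epithelial pits that hold stem cells and young secretory cells, of mice aged 6 to 8 weeks. One group of mice received blocking antibodies against Notch1 and Notch2 plus an Lrp6 blocking antibody at 30 mg/kg (N1N2 plus Lrp6). Lrp6 is a Wnt co-receptor. A second group received the Notch1 and Notch2 antibodies alone (N1N2), for which the labels give 1 mg/mL and no amount per animal. The control group carries the label of an IgG antibody, although the series design calls it untreated. Crypts were taken 24 h after dosing, and each of the 3 groups had 5 arrays, described as biological replicates. Strain, sex and the number of animals behind an array are not given in the sources used here.

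Values are log2 ratios of the crypt RNA (red channel) over a universal mouse reference RNA (green channel) on the same array, so that 0 is an equal signal and 1 is a doubling. The 15 arrays lay on 6 slides. Control replicates 4 and 5 shared a slide with N1N2 replicates 1 and 2, and every other slide held 1 group. Between 57.2% and 79.8% of spots were well above background in red, lowest on N1N2 plus Lrp6 replicates 1 to 4, and no spot was saturated. Crypt epithelium markers averaged 5.35 ± 0.15 in N1N2 plus Lrp6 crypts, 5.39 ± 0.20 in N1N2 crypts and 5.50 ± 0.08 in control crypts (mean of 9 genes, SD, n = 5 arrays each). Among them Cdh1, Vil1 and Cdx2 were above 6 in every group, while Lgr5 was at 1.43, 2.09 and 2.64 in the same order. Stromal and muscle markers averaged -3.61 ± 0.26 in N1N2 plus Lrp6 crypts, -3.18 ± 0.14 in N1N2 crypts and -2.82 ± 0.33 in control crypts (mean of 12 genes, SD, n = 5 arrays each). Precision is limited by having 5 arrays in a group.

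Granins are acidic proteins that aggregate in the trans-Golgi and help to form the granule core, and several are themselves cut into peptides. Pcsk1, also called PC1/3, cleaves prohormones at pairs of basic residues, and in gut L cells it releases GLP-1 from proglucagon. Cpe then trims the basic residues left at the cut ends. Notch signalling holds crypt progenitors away from secretory fates, and Neurog3 commits some of those progenitors to the enteroendocrine lineage.

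Granule genes of endocrine cells often carry a cAMP response element (CRE) close to the transcription start. The 250 bases before the start of 9 of the 10 genes were available from RefSeq (build GRCm38.p6), the exception being Cpe. The full CRE letters TGACGTCA lay in 3 of the 9, namely Pcsk1, Chgb and Scg2, against 1.55% of the 32851 mouse promoters searched. They began 78 bases before the start in Pcsk1, 72 in Chgb and 68 in Scg2. The shorter letters TGACG, found on either strand and present in each full CRE, lay in 6 of the 9 promoters, against 17.8% of all. The E-box letters CANNTG, the kind of site that Neurog3 and related factors bind, lay in 6 of the 9, against 66.2% of all. These are letter matches in a window and not measured binding. The promoters with a full CRE are printed 5′ to 3′, as is that of Chga, whose TGACG begins 44 bases before its start. Capitals mark TGACGTCA or TGACG read on the printed strand.
Pcsk1 chr13:75089607-75089856 (+ strand): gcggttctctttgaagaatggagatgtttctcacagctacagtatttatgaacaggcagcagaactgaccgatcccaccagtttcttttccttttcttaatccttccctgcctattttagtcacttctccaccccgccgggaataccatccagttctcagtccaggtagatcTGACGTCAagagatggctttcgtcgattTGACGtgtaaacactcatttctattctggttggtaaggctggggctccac
Chgb chr2:132781392-132781641 (+ strand): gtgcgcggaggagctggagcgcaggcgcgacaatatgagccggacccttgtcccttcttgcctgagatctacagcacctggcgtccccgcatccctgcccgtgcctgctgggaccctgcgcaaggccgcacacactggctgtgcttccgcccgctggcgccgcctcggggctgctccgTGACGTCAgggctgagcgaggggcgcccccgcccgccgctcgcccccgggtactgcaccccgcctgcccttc
Scg2 chr1:79440027-79440276 (- strand): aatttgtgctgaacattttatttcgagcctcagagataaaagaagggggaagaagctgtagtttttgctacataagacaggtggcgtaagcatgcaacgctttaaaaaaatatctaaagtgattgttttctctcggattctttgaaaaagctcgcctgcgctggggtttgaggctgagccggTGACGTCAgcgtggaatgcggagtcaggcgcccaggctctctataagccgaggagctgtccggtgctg
Chga chr12:102554691-102554940 (+ strand): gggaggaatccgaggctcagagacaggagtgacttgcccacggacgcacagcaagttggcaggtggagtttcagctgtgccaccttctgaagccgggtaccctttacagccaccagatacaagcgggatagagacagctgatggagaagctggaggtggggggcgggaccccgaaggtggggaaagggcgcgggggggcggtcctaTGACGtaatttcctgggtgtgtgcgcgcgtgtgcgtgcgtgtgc

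Blocking Notch1 and Notch2 for 24 h left most granule genes near their control level, and Pcsk1 was the one gene called higher. In N1N2 crypts Pcsk1 was 1.84-fold higher than in control crypts, and with the Lrp6 antibody added it was lower again, by 0.53 on the log2 scale. The first call was lost with slide as a block (0.65, limma adjusted p = 0.29) and within the only slide that both groups shared (limma adjusted p = 0.15). Both fits take this difference from the arrays of that slide. In the second comparison slide and treatment cannot be told apart. Both calls were lost with the scanner software's own ratio and with arrays scaled to each other. The second was lost with median centring and a background offset of 0 as well. Chga, Chgb, Scg2, Scg3, Scg5, Scgn, Pcsk1n and Resp18 did not pass the test in any of the 3 comparisons. One of 3 Cpe probes fell in N1N2 crypts. In bulk crypt RNA, a change in the number of endocrine cells and a change in RNA per cell cannot be told apart.

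**Figure D1:**
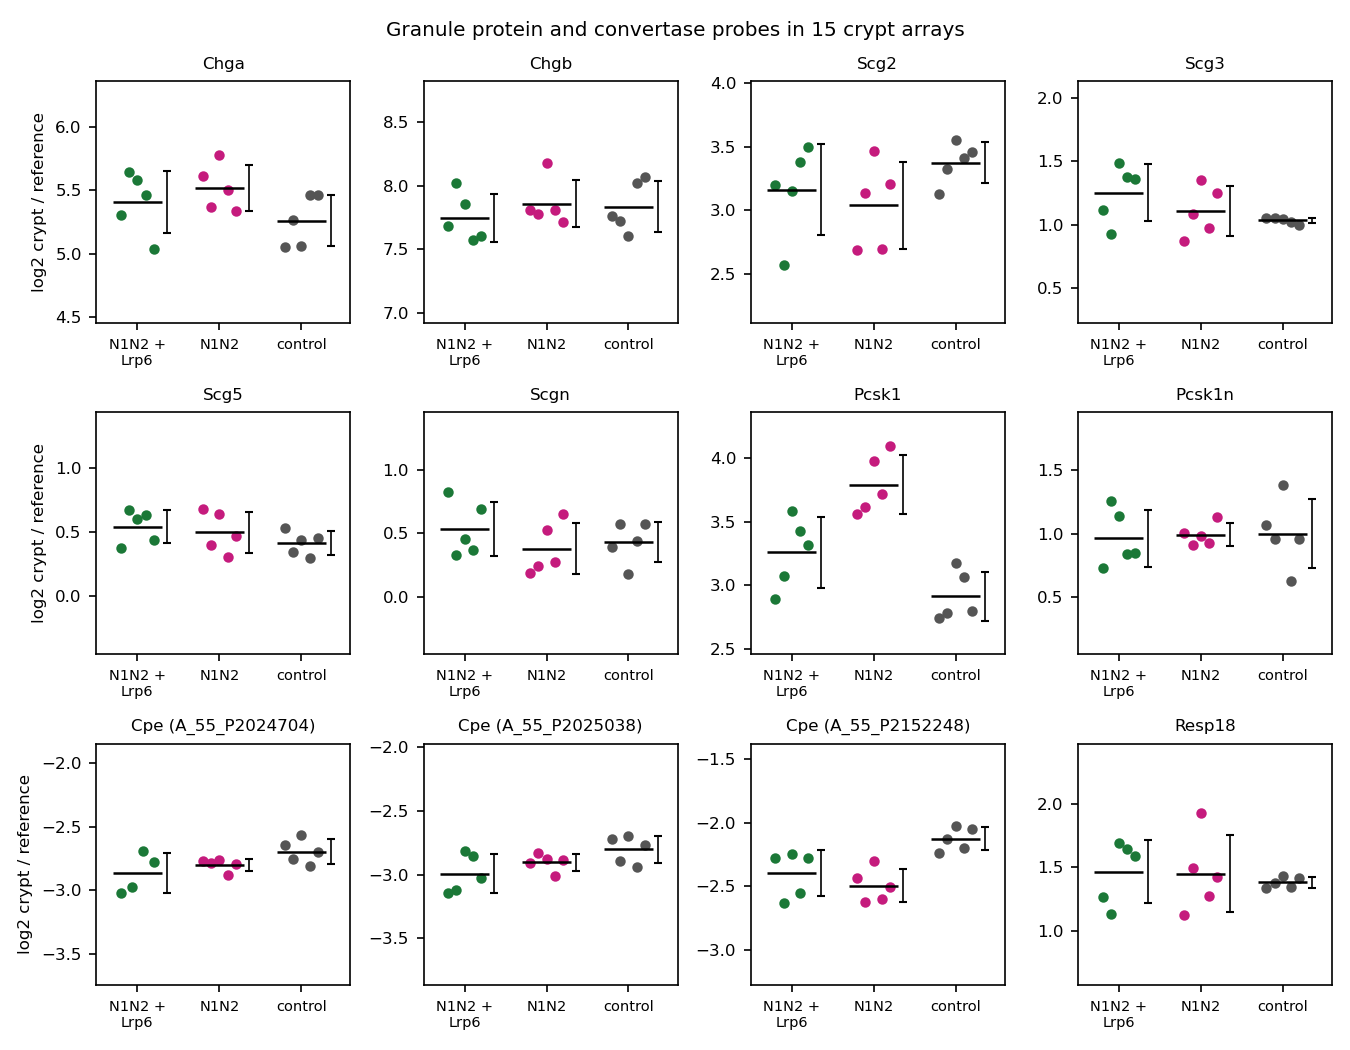
Log2 ratio of crypt over reference for each of the 12 probes on every array, with N1N2 plus Lrp6 in green, N1N2 in magenta and control in grey; lines are group means, bars are ± 1 SD, and each panel spans the same number of log2 units. The 5 N1N2 arrays for Pcsk1 lie above all 5 control arrays. For Chga, Chgb, Scg2, Scg3, Scg5, Scgn, Pcsk1n, Resp18 and the Cpe probes A_55_P2024704 and A_55_P2025038 the 3 groups overlap.

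The effect of Notch blockade was read from N1N2 against control crypts. Of the 12 probes, 2 passed an adjusted p of 0.05 (limma, Benjamini-Hochberg over 28480 probes), 1 of them higher and 1 lower, against 11.4% of all probes tested, 6.2% higher and 5.23% lower. The groups did not overlap for the same 2 probes, against 12.2% of all, 5.83% higher and 6.32% lower. The median change of the 12 probes was 0.0066, and that of all probes was -0.0066. For the 10 probes that did not pass, each 95% interval of the change lay within ±1 on the log2 scale, and for 8 of them within ±0.5. In this fit a 2-fold or larger difference of the ratio therefore lay outside the interval for these 10 probes, while some smaller differences lay inside. For Scgn this does not exclude a 2-fold change in RNA. Its crypt signal was only 15 to 92 units above local background. The background offset added to both channels makes the ratios of such dim spots smaller. With the scanner software's own ratio Scgn gave a wider spread, at -0.49 ± 0.51 (SE). The offset also affects the ratios of Scg2, Scg3 and Resp18, whose reference spots were dim.

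Pcsk1 had log2 ratios of 2.89, 3.07, 3.58, 3.43 and 3.32 in N1N2 plus Lrp6 replicates 1 to 5. The N1N2 values were 3.56, 3.61, 3.98, 3.71 and 4.10, and the control values were 2.75, 2.78, 3.17, 3.06 and 2.80. All 5 N1N2 arrays lay above all 5 control arrays, and the N1N2 plus Lrp6 arrays lay between the group means of the other groups on 4 of 5 replicates. N1N2 exceeded control by 0.88 ± 0.14 (SE), with a 95% interval of 0.58 to 1.18 (limma adjusted p = 0.0011). N1N2 plus Lrp6 lay below N1N2 by 0.53 ± 0.14 (95% interval of the change -0.83 to -0.24, limma adjusted p = 0.017), with the highest N1N2 plus Lrp6 array, 3.58, just above the lowest N1N2 array, 3.56. N1N2 plus Lrp6 against control gave 0.34 ± 0.14, which did not pass (95% interval 0.046 to 0.64, limma adjusted p = 0.33). The order was thus N1N2, then N1N2 plus Lrp6, then control, and the last pair of neighbours did not differ beyond the threshold.

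The Pcsk1 spot was clear in the crypt channel, at 637 to 2123 units above local background, but the reference channel held only 3 to 39.5 units there. The size of the ratio therefore depends on how the reference background is handled. With the crypt channel taken alone, a check added after the data were seen, N1N2 exceeded control by 0.80 (limma adjusted p = 0.00018). On the slide that both groups shared, the N1N2 values were 3.56 and 3.61 and the control values 3.06 and 2.80, a difference of 0.65 that did not pass among 4 arrays (limma adjusted p = 0.15). With slide as a block in the fit of all arrays the difference rests on the same 4 arrays. It was therefore the same, and it did not pass (limma adjusted p = 0.29). Over 13 alternatives it passed in 9. Such counts are not counts of independent checks. The fit without the filter on dim probes kept the same values, and the deposited log2 values nearly so (0.89). The difference did not pass with the scanner software's own log ratio either (0.97, limma adjusted p = 0.16), or with arrays scaled to each other (0.095, limma adjusted p = 0.91). The lower level with Lrp6 antibody was called in 7 of its 11 alternatives, and was lost with the scanner ratio (-0.72), median centring (-0.51), scaled arrays (-0.21) and a background offset of 0 (-0.78).

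Pcsk1n, whose product proSAAS inhibits Pcsk1, showed no parallel shift. It averaged 0.96 ± 0.22 in N1N2 plus Lrp6 crypts, 0.99 ± 0.09 in N1N2 crypts and 1.00 ± 0.27 in control crypts (SD, n = 5 each). N1N2 differed from control by -0.0081 (95% interval -0.28 to 0.26, limma adjusted p = 0.98). An increase like that of Pcsk1 lies outside this interval, while a change of 0.2 either way does not.

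Scg5, also called 7B2, is the chaperone of Pcsk2, the second neuroendocrine convertase. Its means were 0.54 ± 0.13 in N1N2 plus Lrp6 crypts, 0.50 ± 0.16 in N1N2 crypts and 0.41 ± 0.09 in control crypts (SD, n = 5 each). The largest of its 3 differences was 0.13, for N1N2 plus Lrp6 against control (95% interval -0.053 to 0.32, limma adjusted p = 0.55). Its groups overlapped in all 3 comparisons.

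Cpe was the one gene with lower signal in crypts than in the reference on every array. The probe A_55_P2152248 read -2.28, -2.63, -2.25, -2.55 and -2.28 in N1N2 plus Lrp6 replicates 1 to 5. It read -2.44, -2.62, -2.30, -2.60 and -2.51 in N1N2 crypts and -2.24, -2.13, -2.02, -2.20 and -2.05 in control crypts. All 5 N1N2 arrays lay below all 5 control arrays, as did all 5 N1N2 plus Lrp6 arrays, where the margin was narrow at -2.25 against -2.24. N1N2 fell by 0.37 ± 0.09 against control (95% interval of the change -0.56 to -0.18, limma adjusted p = 0.018). N1N2 plus Lrp6 against control gave -0.27 ± 0.09, which did not pass (limma adjusted p = 0.24).

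The other Cpe probes, A_55_P2024704 and A_55_P2025038, had crypt signals of 2262 to 6355 units above local background, while that of A_55_P2152248 was 90 to 369. Each of the 2 differed by -0.10 between N1N2 and control (95% intervals -0.27 to 0.058 and -0.27 to 0.068, limma adjusted p = 0.42 and 0.45). Their groups overlapped, so the 3 probes gave the same sign and only A_55_P2152248 passed. That call was lost without control replicate 5 (-0.35, limma adjusted p = 0.051) or N1N2 replicate 4 (-0.34, limma adjusted p = 0.052). Over 12 alternatives it passed in 6, including the fit without the filter on dim probes, which kept the change at -0.37. The call was lost with slide as a block and within the shared slide (limma adjusted p = 0.31 and 0.27). Both of these take the change, -0.41, from the same arrays. It was also lost with the scanner software's own ratio (-0.45, limma adjusted p = 0.083) and with a background offset of 0 (-0.42, limma adjusted p = 0.064). The same held in the crypt channel alone (-0.23, limma adjusted p = 0.25). The sign turned when arrays were scaled to each other (0.18, limma adjusted p = 0.76). Cpe is made in many cells besides endocrine ones. Stromal and muscle markers had a median change of -0.34 in the same comparison, with Dcn and Lum lower among 12, and their part in the Cpe values was not tested. A_55_P2024704 had no value on N1N2 plus Lrp6 replicate 5, where its spot was flagged, so its means there rest on 4 arrays.

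Chga, the granin used most widely to mark endocrine cells, had log2 ratios of 5.31, 5.64, 5.58, 5.47 and 5.04 in N1N2 plus Lrp6 replicates 1 to 5. It read 5.61, 5.37, 5.78, 5.50 and 5.34 in N1N2 crypts and 5.06, 5.27, 5.06, 5.46 and 5.46 in control crypts. The N1N2 and control arrays overlapped, with control replicates 4 and 5 above N1N2 replicates 2 and 5. N1N2 exceeded control by 0.26 ± 0.13, which did not pass (95% interval -0.011 to 0.53, limma adjusted p = 0.21). On the slide that both groups shared the difference was 0.028. The difference between N1N2 plus Lrp6 and N1N2 was -0.11 (limma adjusted p = 0.63), and in the crypt channel alone it was -0.40 and passed (limma adjusted p = 0.030).

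Chgb, the companion granin that shares the granule core, has a probe that is spotted 10 times on each array. The SD between these spots within an array was 0.034 to 0.090, against 0.18 to 0.20 between arrays of a group. Its means were 7.75 ± 0.19 in N1N2 plus Lrp6 crypts, 7.86 ± 0.18 in N1N2 crypts and 7.84 ± 0.20 in control crypts (SD, n = 5 each). N1N2 differed from control by 0.021 (95% interval -0.23 to 0.27, limma adjusted p = 0.94). The spread between arrays, not between spots, set the width of that interval.

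Scg2, secretogranin II, is the precursor of secretoneurin. Its log2 ratios were 3.20, 2.57, 3.15, 3.38 and 3.50 in N1N2 plus Lrp6 replicates 1 to 5, with 2.69, 3.14, 3.47, 2.69 and 3.21 in N1N2 crypts and 3.13, 3.33, 3.55, 3.41 and 3.46 in control crypts. In each treated group some arrays lay below the lowest control array, 1 of N1N2 plus Lrp6 and 2 of N1N2, while the others lay within the control range. N1N2 against control gave -0.34 ± 0.17, which did not pass (95% interval -0.71 to 0.031, limma adjusted p = 0.23). In the crypt channel alone the change was -0.43 and passed (limma adjusted p = 0.028). With the scanner software's own ratio, N1N2 plus Lrp6 exceeded N1N2 by 1.05 and passed (limma adjusted p = 0.015), against 0.12 here (limma adjusted p = 0.72). The reference signal at the Scg2 spot was 8 to 40 units.

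Scg3 anchors granins to the granule membrane, and Resp18 is a luminal protein of endocrine secretory cells. Scg3 read 1.12, 0.93, 1.49, 1.37 and 1.36 in N1N2 plus Lrp6 replicates 1 to 5, with 0.87, 1.08, 1.35, 0.97 and 1.25 in N1N2 crypts. The control values of Scg3 were 1.05, 1.05, 1.04, 1.02 and 1.00. Control arrays thus spanned a narrow range within that of each treated group. The SD of Scg3 was 0.22 in N1N2 plus Lrp6 crypts, 0.20 in N1N2 crypts and 0.022 in control crypts, and that of Resp18 was 0.25 in N1N2 plus Lrp6 crypts, 0.30 in N1N2 crypts and 0.041 in control crypts (n = 5 each). A difference of spread was not tested. Neither mean passed the test in any comparison, and Scg3 in N1N2 plus Lrp6 crypts was 0.22 above control (95% interval -0.0092 to 0.45, limma adjusted p = 0.41). The Resp18 reference signal was 16 to 32.5 units, and its N1N2 plus Lrp6 against control difference of 0.083 became -0.50 with the scanner software's own ratio, without passing in either.

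Scgn, secretagogin, is a calcium-binding protein of neuroendocrine cells. It was the only gene of the 10 with unflagged spots near background. Its spot was well above background on 3 N1N2 plus Lrp6 arrays, 4 N1N2 arrays and 4 control arrays. Its means were 0.53 ± 0.21 in N1N2 plus Lrp6 crypts, 0.38 ± 0.20 in N1N2 crypts and 0.43 ± 0.16 in control crypts (SD, n = 5 each). N1N2 against control gave -0.055 (95% interval -0.30 to 0.19, limma adjusted p = 0.82). With the scanner software's own ratio the change was -0.49 ± 0.51 (SE), and with a background offset of 0 it was -0.13 ± 0.34 (SE). At a signal this close to background, changes beyond the interval above could therefore be missed.

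**Figure D2:**
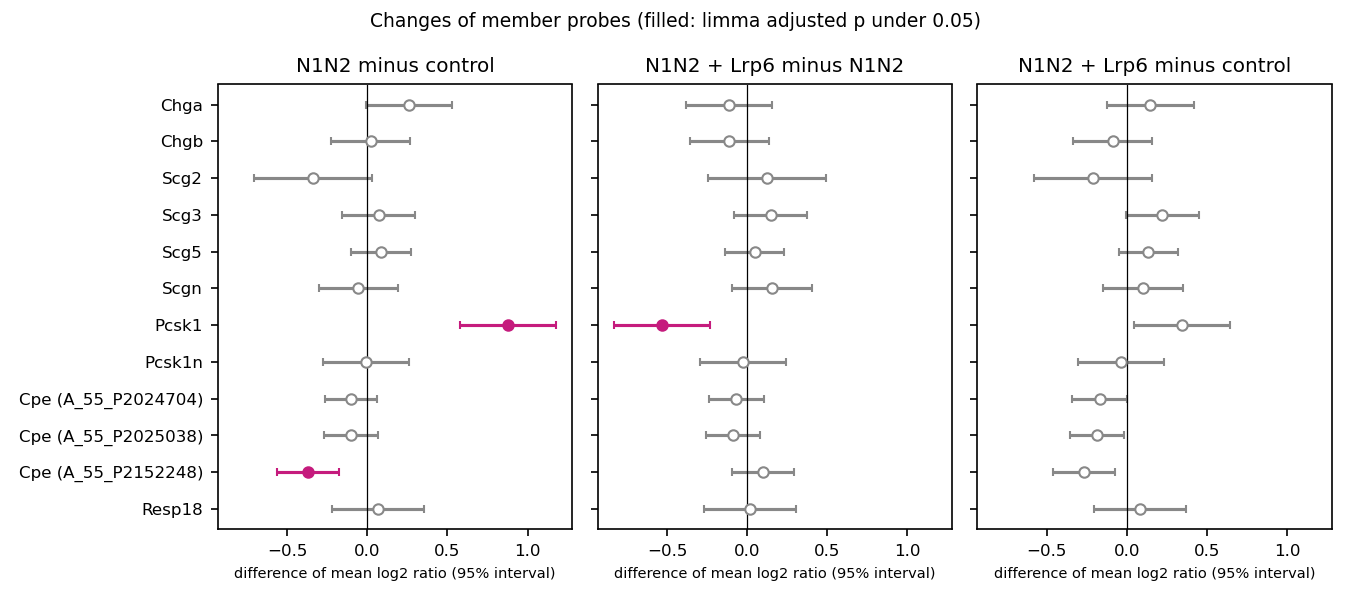
Difference of group mean log2 ratios for each probe in the 3 comparisons, with 95% intervals from the limma fit; filled points passed an adjusted p of 0.05. Pcsk1 passed in the first panel at 0.88 and in the second at -0.53, 1 Cpe probe passed in the first at -0.37, and no probe passed in the third.

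The effect of adding the Lrp6 antibody was read from N1N2 plus Lrp6 against N1N2 crypts. Of the 12 probes 1 passed, Pcsk1, which was lower, against 16.5% of all probes tested, 9.68% higher and 6.87% lower. No probe had groups without overlap, against 9.99% of all, 6.24% higher and 3.75% lower. The median change of the 12 probes was -0.0053, and that of all probes was 0.0039. In this fit each of the 11 other intervals lay within ±0.5 on the log2 scale. That limit depends on how background is handled at dim spots. With the scanner software's own ratio Scg2 was higher by 1.05 and passed (limma adjusted p = 0.015). Resp18 gave -0.47 ± 0.22 (SE) and Scgn -0.063 ± 0.51 (SE) with that ratio, and neither passed. Changes beyond ±0.5 are therefore not excluded for these 3 genes. Slide and group cannot be told apart in this comparison, because no slide held both groups.

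N1N2 plus Lrp6 against control, which shares arrays with both comparisons above, showed the combined treatment against its baseline. None of the 12 probes passed, against 0.358% of all probes tested, 0.197% higher and 0.162% lower. At an unadjusted p under 0.05 there were 3, namely Pcsk1 at 0.34 and the Cpe probes A_55_P2025038 at -0.19 and A_55_P2152248 at -0.27. Only the last had groups without overlap, against 2.62% of all, 1.53% higher and 1.09% lower. With slide as a random block the same 3 probes passed (limma adjusted p = 0.034, 0.044 and 0.018), in a fit whose correlation within slides was estimated below 0 at -0.18.

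Within groups, 3 pairs of granule genes passed a test of correlation between arrays by Pearson r, and none passed by Spearman rho or within slides. After each group's mean was subtracted, 45 pairs of genes were compared over 15 arrays, each with permutations within groups and p-values adjusted over the 45 pairs. Chga and Chgb had Pearson r = 0.81 (permutation p = 0.0013, adjusted 0.030) and Spearman rho = 0.80 (permutation p = 0.0020, adjusted 0.088). The relation had the same sign in each group, with r = 0.72 in N1N2 plus Lrp6, 0.87 in N1N2 and 0.90 in control arrays, where both genes were higher on the slide of replicates 4 and 5 than on that of replicates 1 to 3, and was 0.81 without the 2 arrays farthest from the median of Chga. Scg2 and Resp18 had r = 0.82 (permutation p = 0.0021, adjusted 0.032) and rho = 0.78 (permutation p = 0.0047, adjusted 0.088), or r = 0.69 without the 2 farthest arrays. Within groups their r was 0.75 in N1N2 plus Lrp6, 0.92 in N1N2 and 0.82 in control arrays.

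Scg3 and Resp18 had r = 0.92 (permutation p = 0.00052, adjusted 0.023) and rho = 0.82 (permutation p = 0.0078, adjusted 0.088), or r = 0.86 without the 2 farthest arrays. This relation was present among N1N2 plus Lrp6 arrays (r = 0.99) and N1N2 arrays (r = 0.89) but not among control arrays (r = -0.30), where both genes hardly varied. Of the 45 pairs 3 passed by Pearson and none by Spearman, where the smallest adjusted p was 0.088. Chga had r = -0.24 with Scg2 and r = 0.063 with Resp18, and neither pair passed (permutation p adjusted 0.80 and 0.93). Movement shared by all the granule genes was thus not seen, although weaker relations could be missed with 15 arrays. With values centred on slide as well as group, over the 13 arrays that shared a slide with another array of their group, r was 0.60 for Chga and Chgb (permutation p = 0.12, adjusted 0.43), 0.77 for Scg2 and Resp18 (permutation p = 0.019, adjusted 0.21) and 0.94 for Scg3 and Resp18 (permutation p = 0.010, adjusted 0.21). The rho values were 0.63, 0.79 and 0.88 in the same order (permutation p = 0.075, 0.022 and 0.060, adjusted 0.38, 0.32 and 0.38). None of the 45 pairs passed within slides, a check added after the data were seen.

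**Figure D3:**
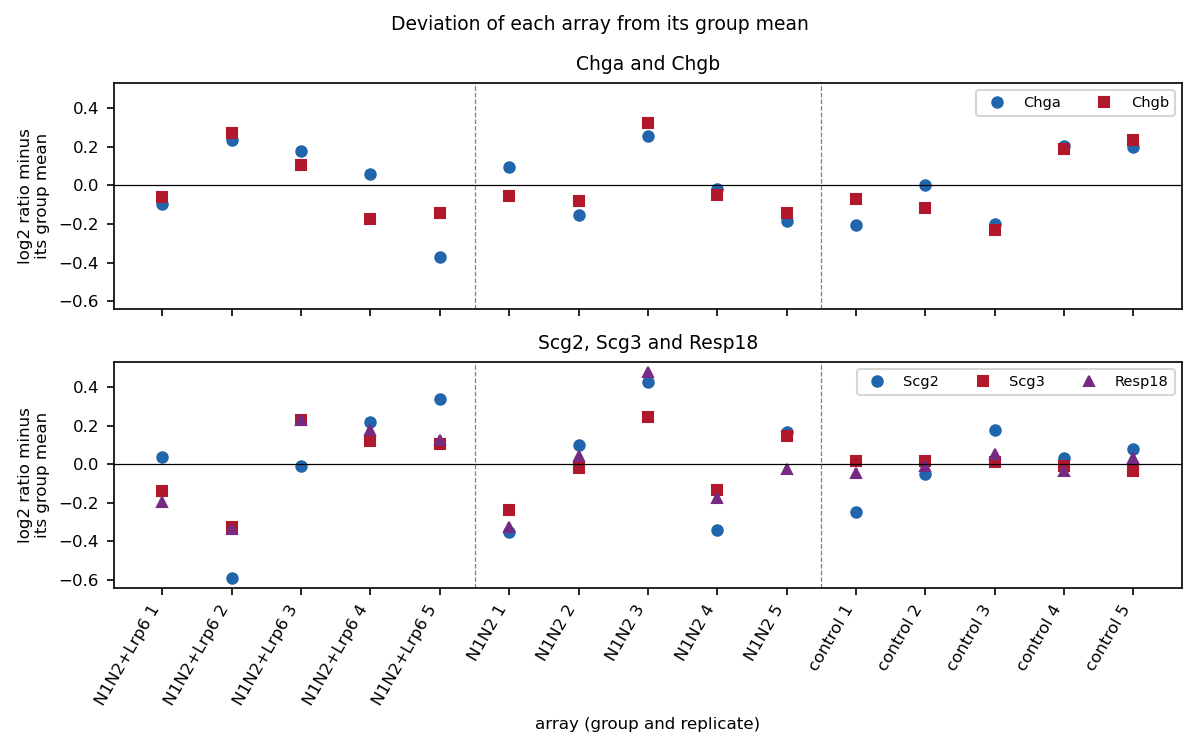
Each array's log2 ratio minus the mean of its group, for Chga and Chgb above and for Scg2, Scg3 and Resp18 below, with 5 arrays per group divided by dashed lines. Chga and Chgb lie close together on most arrays, and Scg3 and Resp18 track each other in both treated groups while staying near 0 in the control group.

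Over all 15 arrays, group differences included, the named genes most like each granule gene were ranked by Pearson r among 15818 genes, as a description. Resp18 was most like Gcg, the proglucagon gene of L cells, at r = 0.93, followed by Scg3 at 0.85 and Slc26a4 at 0.85. Scg3 had Resp18 as its second closest gene after Bscl2 (r = 0.86). Pcsk1 was most like Liph (0.95), Hgfac (0.95) and Apoh (0.94). The closest gene was Ggt6 for Chga (0.85), Trmt44 for Scg2 (0.95), Fcrls for Scg5 (0.92), Lmx1a for Scgn (0.89), BC018473 for Pcsk1n (0.92) and, over 14 arrays, Atad1 for Cpe (0.89). All these values share the arrays, the reference and the normalization.

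Other genes of the same pathway were set beside the granule genes. Over all probes tested, 6.2% were higher and 5.23% lower in N1N2 against control crypts. The shares were 9.68% and 6.87% in N1N2 plus Lrp6 against N1N2, and 0.197% and 0.162% in N1N2 plus Lrp6 against control. With slide as a fixed block, calls over all probes in N1N2 against control crypts fell from 3257 to 117. The lists below were not read in that fit. Among 12 other peptide processing enzymes, 2 rose and 2 fell in N1N2 against control crypts (median change 0.11). Pcsk6, a constitutive-pathway convertase, fell by 0.96 on the log2 scale (limma adjusted p = 0.0015), and Qpct, which forms N-terminal pyroglutamate, fell by 0.49 (limma adjusted p = 0.030). The carboxypeptidase Cpm rose by 0.52 (limma adjusted p = 0.040) and the convertase Pcsk7 by 0.48 (limma adjusted p = 0.0054). Pcsk2, the convertase closest in role to Pcsk1, differed by 0.43 and did not pass (limma adjusted p = 0.087), and Pam, the peptide amidating enzyme, differed by -0.037 (limma adjusted p = 0.89). In N1N2 plus Lrp6 against N1N2 crypts, Pcsk6 rose by 0.54, Cpm fell by 0.47 and Pcsk7 fell by 0.43 (limma adjusted p = 0.030, 0.045 and 0.0071). Pcsk2 gave -0.47 there (limma adjusted p = 0.051).

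A further list held genes for the granule membrane, its assembly and its release. Of 19 such genes 17 were tested, and 6 rose and none fell in N1N2 against control crypts (median change 0.21). Ica1, which binds Rab2 on maturing granules, rose by 1.23 (limma adjusted p = 0.00011), Hid1, a factor of granule formation at the Golgi, by 1.13 (limma adjusted p = 5.6e-06) and Sytl4, the Rab27 effector granuphilin, by 0.96 (limma adjusted p = 0.0015). In N1N2 plus Lrp6 against N1N2 crypts 4 fell and none rose, with Ica1 at -0.73, Slc18a1, a vesicular monoamine transporter, at -0.73, Sytl4 at -0.63 and Hid1 at -0.60 (limma adjusted p = 0.0048, 0.0068, 0.014 and 0.0018). In N1N2 plus Lrp6 against control crypts only Hid1 passed, at 0.53 (limma adjusted p = 0.041).

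The enteroendocrine transcription factors and hormones give the context of the lineage. Of 12 factors 6 rose in N1N2 against control crypts (median change 0.57), led by Neurog3 at 3.83, Rfx6 at 2.20 and Pax4 at 1.96 (limma adjusted p = 8.7e-07, 1.8e-05 and 2.3e-05). In N1N2 plus Lrp6 against N1N2 crypts 3 fell, with Rfx6 at -1.33, Pax4 at -0.82 and Nkx2-2 at -0.66 (limma adjusted p = 0.0016, 0.013 and 0.0056). In N1N2 plus Lrp6 against control crypts Neurog3, Insm1 and Pax4 were higher, by 3.29, 1.69 and 1.14. Of 12 hormone genes none passed in N1N2 against control crypts (median change 0.087), and Sst alone passed in N1N2 plus Lrp6 against N1N2, at 0.37 (limma adjusted p = 0.036). Differences between the lists were not tested.

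**Figure D4:**
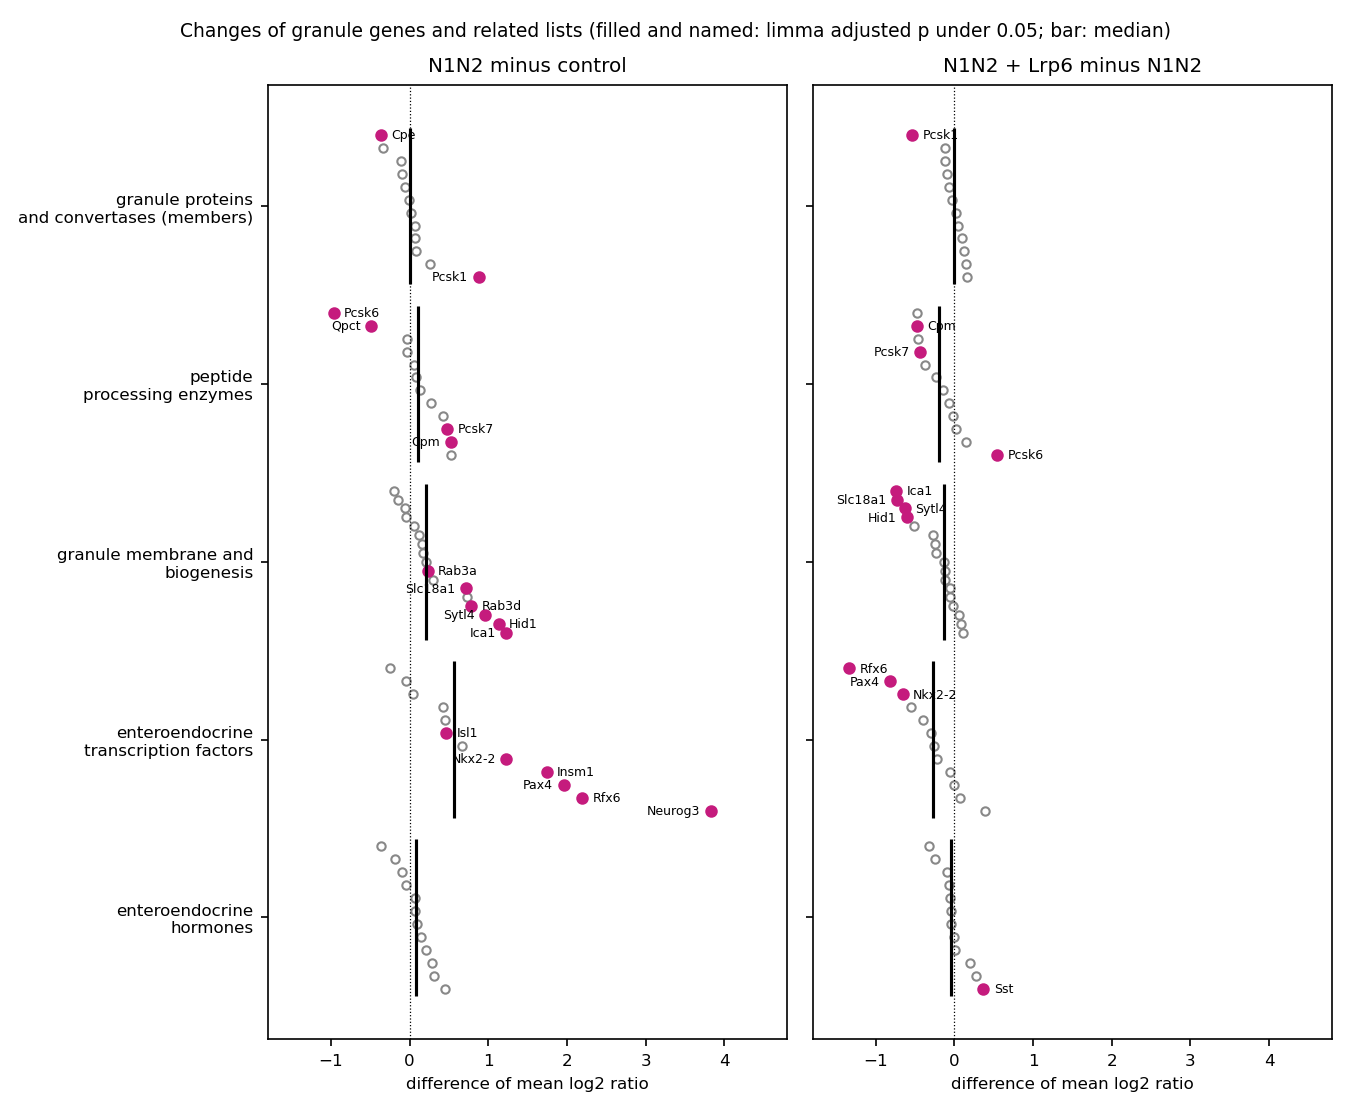
Change of each granule gene probe and of each tested gene in 4 related lists, for N1N2 minus control and N1N2 plus Lrp6 minus N1N2; filled and named points passed an adjusted p of 0.05 and bars are list medians. In the left panel Pcsk1 stands apart from the other granule genes, and the transcription factors reach 3.83 for Neurog3.

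Enteric neurons also make granins, so their markers were read beside the granule genes. Of 13 neuron markers 7 were tested, and Elavl3, Uchl1, Vip, Nos1 and Gap43 were among those too dim in every group. The mean of the 7 was -0.41 ± 0.13 in N1N2 plus Lrp6 crypts, -0.31 ± 0.03 in N1N2 crypts and -0.52 ± 0.06 in control crypts (SD, n = 5 each), with ranges of -0.52 to -0.21 in N1N2 plus Lrp6, -0.35 to -0.28 in N1N2 and -0.63 to -0.47 in control arrays. None of the 7 passed in N1N2 against control, and Ret, which is not confined to neurons, was at 0.55 (limma adjusted p = 0.050). Ret fell by 0.54 in N1N2 plus Lrp6 against N1N2 crypts (limma adjusted p = 0.043). The 7 markers lay 0.032 to 0.55 above control in N1N2 crypts, whereas in N1N2 plus Lrp6 against N1N2 crypts Elavl4 and Prph were at 0.10 and 0.063 and the other 5 were below 0. Their part in the change of Pcsk1 was not tested.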

How the data were processed

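Per the labels' protocols, Cy5-labelled crypt RNA and a Cy3-labelled common reference were hybridised together to Agilent arrays. No array had the dyes swapped. Per the file headers, Feature Extraction 11.0.1.1 read the spots, and mm9 was the build of the probe design. The scanner files the authors deposited give, per spot and channel, a median intensity with its local background, a log10 ratio of red over green and quality flags. Medians were used throughout, since the columns read gave no mean spot signal. A series-wide table of log2 values was deposited too, for which the submitters' processing notes name R 3.0.0 and limma 3.6.7. Its columns matched the log2 ratios computed here on every array in sign and scale, and it served as an alternative.

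Using limma 3.58.1 in R 4.3.3 (and version 1.17.8 of data.table), flagged spots (306 to 642 of 44397 per array) were left out. Background was corrected by normexp (offset 50), loess was applied within each array (weight 0 for control spots), and spots of a probe were averaged. A probe was tested if 4 or more of the 5 arrays in any group had it well above background in red. Each probe was a feature. The 3 groups entered 1 fit (lmFit, eBayes) of 15 arrays, with two-sided p-values adjusted by Benjamini-Hochberg over 28480 probes and a threshold of 0.05. Gene symbols came from a RefSeq table (GRCm38.p6), matched by accession without version for 26581 of 39429 probes. For genes outside the granule list the brightest probe in the red channel was used.

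The scripts were tested on simulated data. Pairs of genes were compared with 100000 permutations within groups. Replicate number was not used as a block, because the labels do not say that it marks a shared litter or day. Same-numbered arrays correlated above 0.1 in 4 of 5 pairs between N1N2 and control, and in 0 of 5 in each other comparison. Alternatives covered the background correction, normalization, filter, probe choice, arrays in the fit, slide, replicate number, each array left out in turn and, added after seeing the data, the red channel alone and, for pairs of genes, centring on slide. The genes and lists were chosen with earlier results of these data known. Named from the other lists were up to 3 genes per comparison with the largest change past the threshold, and for each granule gene the 3 most correlated genes. The gene most correlated with Chgb is not reported here. Pcsk2, Pam, Pcsk7, Hid1 and the marker genes outside this rule were named after their values were seen. Other lists were markers of neurons, glia, stroma and muscle, immune, goblet, Paneth, tuft and crypt epithelial cells.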

Additional observations from a re-analysis of the deposited data

Results flagged for a closer look

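In each of the 36 sets of arrays (12 probes in 3 groups, 4 or 5 arrays each), the array farthest from the others was set against Dixon's 95% limit, which chance exceeds in about 5% of sets. It was exceeded in 2 sets. Chgb stood at 8.18 on N1N2 replicate 3, whereas the other N1N2 arrays lay between 7.71 and 7.81. Chga was also highest of its group on that array. The Cpe probe A_55_P2024704 stood at -2.88 on N1N2 replicate 4, with the other N1N2 arrays between -2.80 and -2.77.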

How the results depend on the processing

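Over the alternatives and arrays left out, 932 changes of single granule probes stayed on their side of the threshold, 15 lost a call, 6 gained one and 1 reversed. Among the 932, 75 changed sign while called in neither setting. The reversal was Cpe A_55_P2152248 in N1N2 against control, at 0.18 with arrays scaled. No setting moved the median change of all probes beyond 0.1. For N1N2 against control, 3257 probes passed, against 2153 with the scanner ratio, 1456 with median centring, 793 with arrays scaled, 4969 with only 2 groups fitted, 117 with slide as a fixed block, 3 within the shared slide and 1747 to 4654 without any 1 of the 15 arrays. Of the granule probes 2 passed, against 0 with the scanner ratio, scaled arrays, the slide block or the shared slide, 1 with offset 0 or one probe per gene, and 1 to 2 without 1 array. For N1N2 plus Lrp6 against N1N2, 4713 passed, against 596 scaled, 8328 with slide as a random block and 2938 to 5624 without 1 array. The 1 granule call became 0 with median centring, scaling or offset 0 and 2 with the red channel alone, and stayed 1 without any 1 array. For N1N2 plus Lrp6 against control, 102 passed, against 181 with the scanner ratio, 34 with median centring, 1 scaled, 54 with 2 groups, 3272 with the random block, 32 with the replicate block and 27 to 422 without 1 array. Granule calls were 0, and 3 with the random block. The share of calls that were higher was 54.3% in the first comparison (68.9% scaled, 73.5% with the slide block, 45.6% with median centring, 48.2% with 2 groups, 33.3% within the shared slide), 58.5% in the second (77.2% with median centring) and 54.9% in the third (38.1% with the scanner ratio, 45% with offset 0, 70.4% with 2 groups). With the replicate number as a block, 2823, 4369 and 32 probes passed in the same order and no granule call changed. Same-numbered arrays correlated at -0.0076 to 0.61 between N1N2 and control, with 4 of 5 pairs above 0.1. The range was -0.42 to 0.084 between N1N2 plus Lrp6 and N1N2, and -0.26 to 0.0013 between N1N2 plus Lrp6 and control. Whether the numbers mark pairs of N1N2 and control arrays cannot be told from 5 pairs. The causes of these shifts were not tested. Dim reference spots, at most 50 units above background, limit the ratios of Pcsk1, Scg2, Scg3, Scgn and Resp18.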

Other observations

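Markers of other crypt cell types were read in the same fit as the granule genes. The shares over all probes and the limit from slides given with the other lists hold here too. Of 7 goblet cell markers 3 rose and none fell in N1N2 against control crypts (median change 0.56), with Spdef at 1.90, Agr2 at 1.27 and Tff3 at 0.62. The N1N2 plus Lrp6 crypts had 2 of the 7 lower than in N1N2 crypts, Spdef at -0.96 and Agr2 at -0.76 (median change -0.44). Only Spdef passed in N1N2 plus Lrp6 against control crypts, at 0.95. None of 4 tested Paneth cell markers or 4 tested enteric glia markers passed in any comparison. Of 4 tested tuft cell markers 1 rose in N1N2 against control crypts, Trpm5 at 0.39. Of 8 immune markers 2 fell there, Gzma at -0.77 and Cd3e at -0.64, with a median change of -0.52 for the list. Of 9 crypt epithelium markers Ascl2 alone passed in N1N2 against control crypts, at -1.45, and in N1N2 plus Lrp6 against N1N2 crypts, at 1.32, while Lgr5 alone passed in N1N2 plus Lrp6 against control crypts, at -1.21. Of 12 stromal and muscle markers 5 fell in N1N2 plus Lrp6 against N1N2 crypts, led by Col1a2 at -0.88, Acta2 at -0.81 and Col1a1 at -0.79, and 2 fell in N1N2 plus Lrp6 against control crypts, Col3a1 at -1.31 and Col1a1 at -1.15.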
